A study of Arabidopsis thaliana with 4 samples.

Results

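The Aux/IAA repressors and the TIR1/AFB receptors of *Arabidopsis thaliana* were followed in dark-grown seedlings given ethylene. The 35 members are the 29 Aux/IAA genes (IAA1 to IAA20 and IAA26 to IAA34) and the 6 receptor genes TIR1 and AFB1 to AFB5, chosen by locus among 32635 named rows of the authors' deposited table. Of the members, 34 had a row of their own, and IAA10 lay in a row merged with a neighbouring locus. The ethylene group was *daz3tree1* seedlings in the COL background that received 10 ppm ethylene in hydrocarbon-free air for 4 h, and the air group was the same genotype kept in that air without ethylene. The labels name the mutant but not its alleles. All seedlings were 3 days old and grown in darkness, and RNA came from whole seedlings. There were 2 libraries per group, and each group has 1 value per gene in FPKM (fragments scaled to transcript length and library size), so no spread between libraries can be given. Both groups carry the *daz3* and *tree1* mutations, and with no wild type analysed here the values describe only the mutant.

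Aux/IAA proteins are short-lived nuclear repressors. They bind auxin response factors (ARFs) at auxin-responsive genes and recruit TOPLESS co-repressors. Auxin joins them to the F-box proteins TIR1 and AFB, which are both auxin receptors and subunits of an SCF ubiquitin ligase, and the repressor is then degraded. Many Aux/IAA genes are themselves induced by auxin, so their transcripts are often used as a readout of the pathway. In etiolated seedlings auxin acts in hypocotyl growth and in the apical hook.

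The short stretch of an Aux/IAA protein that the receptor binds is its degron, in domain II, with a glycine-tryptophan-proline-proline core. Coding sequences of the RefSeq annotation of TAIR10.1 held codons for this core in 23 of the 29 Aux/IAA genes. IAA20, IAA30, IAA31, IAA32, IAA33 and IAA34 held none. The stretch is shown for the 5 genes that fell with ethylene and for IAA19, the closest relative of IAA6, because it is the part through which auxin acts on them. Capitals mark the codons of the core, with 15 coding bases on each side.
IAA6: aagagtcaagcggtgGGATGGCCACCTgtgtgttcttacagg
IAA29: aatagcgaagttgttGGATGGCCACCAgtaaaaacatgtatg
IAA4: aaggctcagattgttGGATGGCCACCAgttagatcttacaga
IAA2: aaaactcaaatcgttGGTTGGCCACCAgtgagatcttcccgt
IAA26: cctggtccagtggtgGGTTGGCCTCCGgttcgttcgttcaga
IAA19: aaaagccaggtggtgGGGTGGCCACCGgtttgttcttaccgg
All 5 genes that fell thus encode a repressor with a complete core, as do most genes of the family that did not fall.

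Among the repressors 5 genes fell with ethylene and 0 rose. They were IAA6, IAA29, IAA4, IAA2 and IAA26, and each stood at between 0.303 and 0.521 of its air level in the ethylene group. Of the 29 genes, 25 had a test on a row of their own, so 20% were called lower, beside 4.18% of all 18696 tested rows and 2.17% called higher. A call is an adjusted p under 0.05, by Benjamini-Hochberg adjustment over all tested rows of the p-values in the authors' deposited table. In whole seedlings, fewer cells of a type and less RNA per cell cannot be told apart. Labels do not say that the libraries came from separate cultures, so these p-values may measure technical spread.

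IAA6 (AT1G52830), the gene of the dominant *shy1* mutants, had 6.71 FPKM with ethylene and 22.1 FPKM in air, a log2 fold change of -1.72. IAA29 (AT4G32280), known as a target of phytochrome interacting factors, had 3.57 FPKM with ethylene and 11.5 FPKM in air. Its log2 fold change was -1.68, with a 95% interval of -2.69 to -0.67 implied by the p in the authors' deposited table. These were the largest decreases among the tested members, and both genes have modest levels within the family. IAA4 and IAA2, early auxin-induced genes, are more abundant. IAA4 (AT5G43700) had 71.9 FPKM with ethylene and 158.2 FPKM in air (log2 fold change -1.14). IAA2 (AT3G23030) had 47.6 FPKM with ethylene and 95.5 FPKM in air (log2 fold change -1.01). IAA26 (AT3G16500), also known as phytochrome-associated protein 1, had 34.7 FPKM with ethylene and 66.7 FPKM in air, a log2 fold change of -0.94. The p in the authors' deposited table was the smallest it holds, 5e-05, for IAA6, IAA4, IAA2 and IAA26, which gives an adjusted p of 0.00227 here, and no interval is given for these genes. For IAA29 the p of 0.0011 in the authors' deposited table became 0.0237 after this adjustment.

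**Figure D1:**
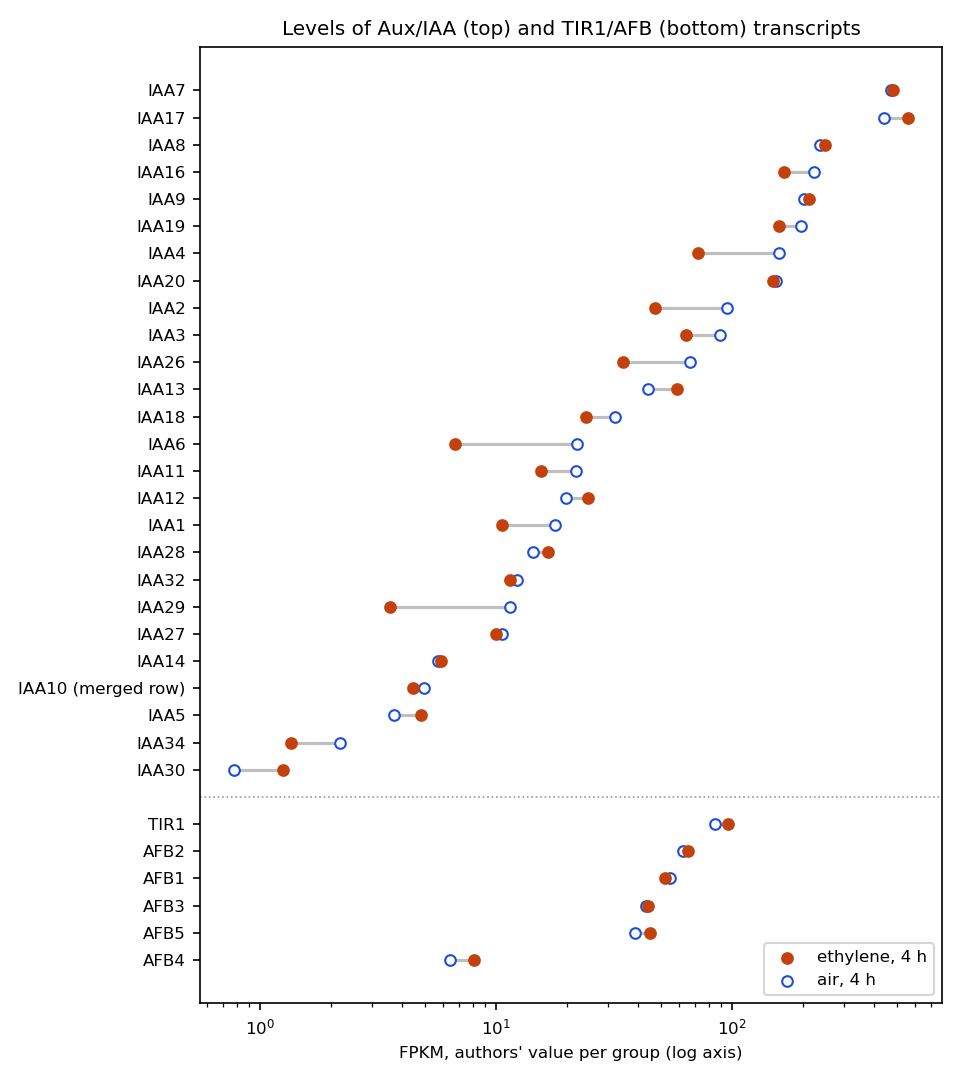
FPKM of each member above 0, on a log axis, with the authors' value for the ethylene group as filled orange points and for the air group as open blue points; genes are ordered by their air value within the Aux/IAA (top) and TIR1/AFB (bottom) families. IAA6 and IAA29 have the widest gaps (6.71 FPKM with ethylene against 22.1 FPKM in air, and 3.57 against 11.5), while the receptor pairs lie close together.

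A further 5 repressor genes had an implied 95% interval below 0 but were not called. IAA1 (AT4G14560), mutated in *axr5*, had 10.7 FPKM with ethylene and 17.8 FPKM in air (log2 fold change -0.74, interval -1.37 to -0.11). IAA3 (AT1G04240), the SHY2 gene that limits root meristem size, had 64.0 FPKM with ethylene and 89.6 FPKM in air (-0.49, interval -0.83 to -0.14). IAA16 (AT3G04730) had 166.2 FPKM with ethylene and 222.4 FPKM in air, a log2 fold change of -0.42 and an interval of -0.70 to -0.14. The p-values of the authors' deposited table, 0.0036 for IAA16 and 0.00575 for IAA3, became 0.0542 and 0.0731 after adjustment, the nearest to the threshold from outside. IAA16 was called with rows under 5 FPKM left out (adjusted p 0.0433). IAA18 had 24.1 FPKM with ethylene and 32.0 FPKM in air (-0.41, interval -0.79 to -0.03). IAA19 (AT3G15540), the MSG2 gene of hypocotyl tropisms, had 158.9 FPKM with ethylene and 195.9 FPKM in air, a log2 fold change of -0.30 with an interval of -0.59 to -0.01. At an unadjusted p under 0.05 in the authors' deposited table, 10 of the 25 tested repressor genes were lower and 2 higher. Of all 18696 tested rows 2064 were lower and 1448 higher, so the share of higher repressor genes was close to that of all rows.

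Those 2 genes with higher values were IAA17 and IAA13, neither of which was called. IAA17 (AT1G04250), the AXR3 gene, had 560.7 FPKM with ethylene, the highest level of the family in that group, and 440.5 FPKM in air (log2 fold change 0.35, interval 0.08 to 0.62). IAA13 (AT2G33310) had 58.7 FPKM with ethylene and 44.4 FPKM in air (0.40, interval 0.06 to 0.75). Its annotated gene overlaps another gene on the opposite strand over 1176 bases. The labels and notes do not say whether reads were counted by strand, so IAA13 reads cannot be told apart from those of its neighbour. In all, 12 members overlap another annotated gene in TAIR10.1, IAA3 among them, but 0 of the 5 genes that fell do.

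Other abundant repressor genes had nearly equal values. IAA7 (AT3G23050), the AXR2 gene, had 482.6 FPKM with ethylene and 473.2 FPKM in air, with an interval of -0.24 to 0.30 on the log2 scale. IAA8 had 249.1 FPKM with ethylene and 238.0 FPKM in air, and IAA9 had 213.3 FPKM with ethylene and 203.5 FPKM in air. On the log2 scale the interval of IAA8 was -0.21 to 0.35 and that of IAA9 -0.21 to 0.34. For these 3 genes a 1.5-fold change in either direction lay outside the interval. Among the less abundant genes with a degron core the intervals were wider. IAA12, the BODENLOS gene of embryonic root formation, had 24.7 FPKM with ethylene and 19.9 FPKM in air (log2 fold change 0.31, interval -0.12 to 0.74). IAA11 had 15.5 FPKM with ethylene and 21.9 FPKM in air (-0.50, interval -1.13 to 0.13). IAA28, known in lateral root formation, had 16.7 FPKM with ethylene and 14.4 FPKM in air (0.21, interval -0.36 to 0.79). IAA27 had 10.1 FPKM with ethylene and 10.6 FPKM in air, a log2 fold change of -0.08 with an interval of -0.63 to 0.48. IAA14, the SOLITARY-ROOT gene, had 5.85 FPKM with ethylene and 5.71 FPKM in air (0.04, interval -0.73 to 0.80). IAA5 was below 5 FPKM in both groups, with an interval of -0.98 to 1.74. The row that merges IAA10 with AT1G04090 had 4.46 FPKM with ethylene and 4.98 FPKM in air and was not called.

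The genes without codons for the degron core encode repressors that TIR1 binds poorly or not at all. IAA20 had 149.9 FPKM with ethylene and 154.0 FPKM in air (log2 fold change -0.04, interval -0.36 to 0.28). IAA32, a repressor described in the apical hook as a partner of the TMK1 kinase, had 11.5 FPKM with ethylene and 12.3 FPKM in air (-0.09, interval -0.82 to 0.65). It overlaps a gene on the opposite strand over 826 bases. Its relative IAA34 had 1.36 FPKM with ethylene and 2.20 FPKM in air, and IAA30 had 1.25 FPKM with ethylene and 0.779 FPKM in air, both with intervals wider than 2-fold on either side. IAA31 and IAA33 were listed at 0 in both groups, as was IAA15, which holds the core. An exact 0 can be a failed estimate, and these 3 genes had no test. Of the 4 tested genes without the core 0 were called in either direction, beside 6.34% of all tested rows. At that share 0 calls among 4 genes is no result about them. Of the 21 tested genes with the core 5 were lower, beside 4.18% of all tested rows. With so few genes, a difference between genes with and without the core was not tested.

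**Figure D2:**
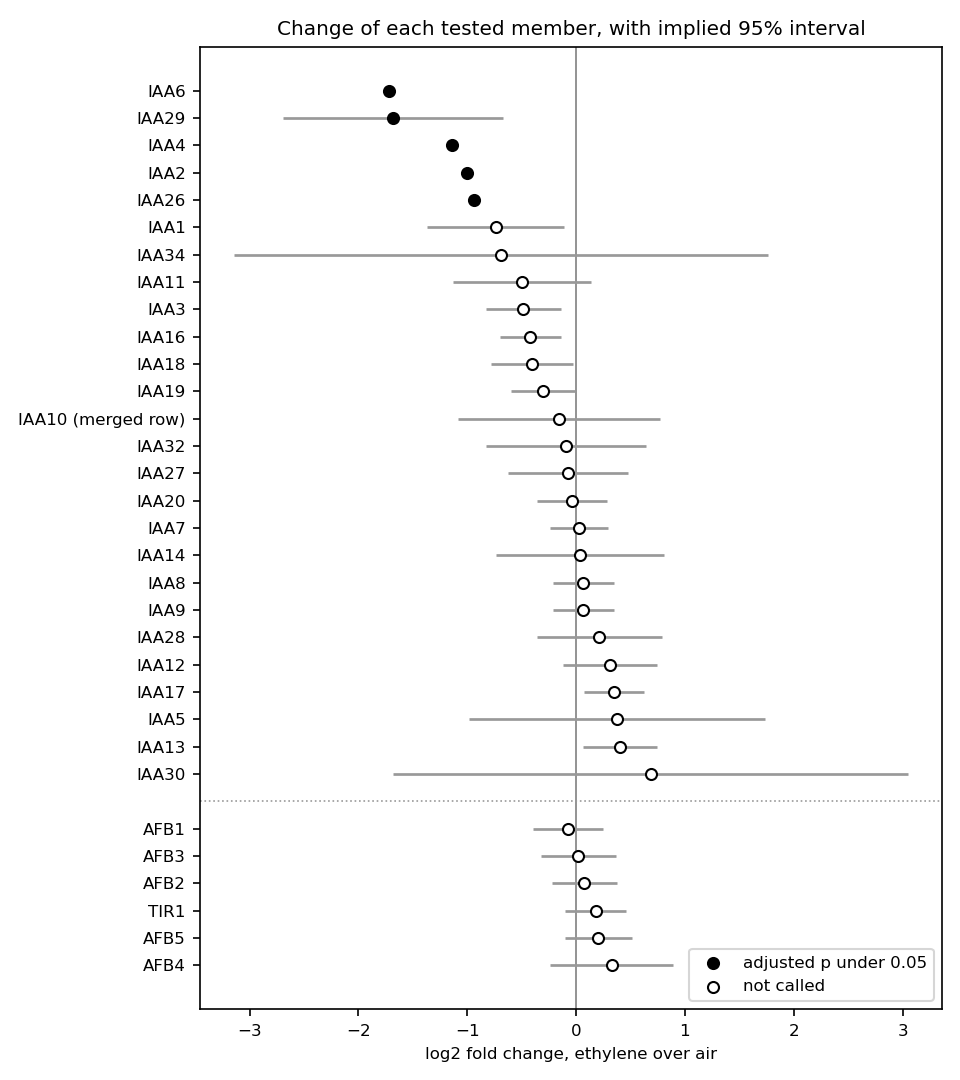
Log2 fold change, ethylene over air, of each tested Aux/IAA (top) and TIR1/AFB (bottom) member, with filled points for adjusted p under 0.05 and lines for the 95% interval implied by the deposited p. IAA6, IAA4, IAA2 and IAA26 have no line because their p is the smallest in the table, and the filled points run from -1.72 to -0.94.

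The family as a whole shifted less than its falling members, which follows from how those members were chosen. Over the 25 tested genes the median log2 fold change was -0.09, beside -0.02 over all tested rows, and 15 values were below 0 and 10 above. Summed over the 28 rows of 1 locus, Aux/IAA transcripts had 2394.6 FPKM with ethylene and 2556.8 FPKM in air. The 5 genes that fell made up 6.87% of this sum with ethylene and 13.8% in air, which follows from their choice. IAA7, IAA17, IAA8, IAA16 and IAA9, the 5 most abundant in air, made up 69.8% with ethylene and 61.7% in air. These direction counts depend on the scale. Relative to 12 housekeeping genes, which had a median log2 fold change of 0.26 and 1 called gene (EF1A, higher), the median of all rows moved from -0.02 to -0.28. On that scale 110 of all rows were higher (0.588%) and 2793 lower (14.9%), and the family had 20 values below 0 and 5 above. It then had 0 genes called higher and 10 called lower, with IAA1, IAA3, IAA16, IAA18 and IAA19 added to the 5. Which scale is right was not tested. With a trend on transcript GC content subtracted, the same 5 genes were lower, beside 3.44% of all rows, and IAA17 was called higher, beside 2.01%. Relative to the housekeeping genes IAA17 had a log2 fold change of 0.09 and IAA13 of 0.15, and neither was called.

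Changes were compared between Aux/IAA genes that lie close together in the genome. This pairing was chosen after the values were seen. In TAIR10.1, 3 pairs of members lie less than 20000 bases apart, each head to head with 1 annotated gene between them. They are IAA1 with IAA14 on chromosome 4 (10732 bases apart), IAA2 with IAA7 on chromosome 3 (12510 bases) and IAA3 with IAA17 on chromosome 1 (6388 bases). The log2 fold change of IAA2 was lower than that of IAA7 by a difference of -1.03, with an implied 95% interval of -1.59 to -0.48. For IAA3 minus IAA17 the difference was -0.83, with an interval of -1.27 to -0.40. For IAA1 minus IAA14 it was -0.77, and its interval of -1.77 to 0.22 reached past 0. In each pair the gene with the lower value was put first, so that every difference is below 0 follows from this order. The difference within a pair does not depend on a common scaling of the groups. The intervals treat the genes as independent, are not adjusted for the number of pairs, and are upper limits in width where IAA2, IAA4, IAA6 or IAA26 takes part.

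**Figure D3:**
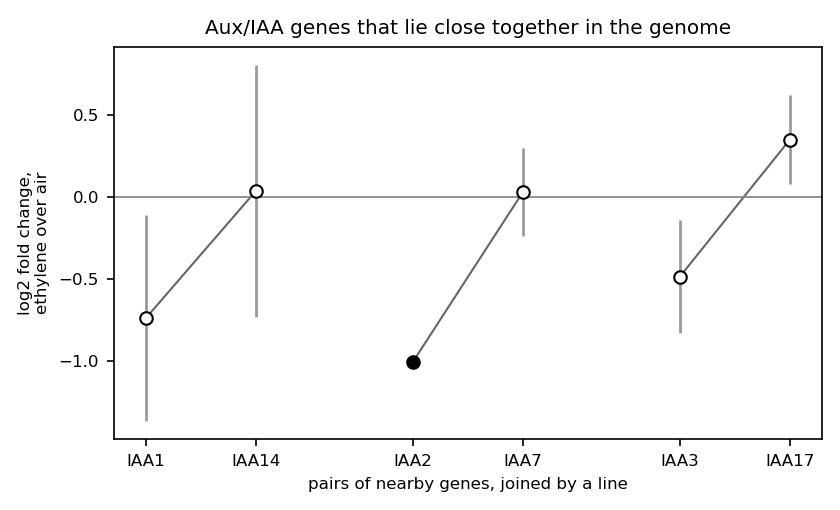
Log2 fold change, ethylene over air, of the 3 pairs of Aux/IAA genes less than 20000 bases apart in the genome, each pair joined by a line, with 95% intervals implied by the deposited p (none for IAA2, whose p is the smallest in the table) and a filled point for the called gene. Each pair is drawn with its lower value on the left, whatever the order in the genome. The differences are -0.77, -1.03 and -0.83, and the interval of the first reaches past 0.

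Changes were also compared between related proteins. Mutual closest relatives were taken from the share of identical residues over the shorter protein. Here too the gene with the lower value was put first in each difference. IAA1 and IAA2 were such a pair (78.6% identity), as were IAA3 and IAA4 (78.5%), and all 4 had values below 0. IAA2 and IAA4 were called, and the intervals of IAA1 and IAA3 lay below 0. Within IAA7 and IAA14 (79.5%) both values lay near 0, at 0.03 and 0.04. IAA12 and IAA13 (76.2%) both had values above 0. IAA6 and IAA19 (64.0%) differed, with IAA6 lower by a log2 difference of -1.42 and an interval of -2.30 to -0.54. Within IAA26 and IAA18 (68.5%) the difference was -0.54, with an interval of -1.13 to 0.06. The interval of the difference between IAA4 and IAA3 ended just below 0, from -1.30 to -0.0016. Of the 12 pairs of mutual closest relatives with tests, receptors and the merged IAA10 row included, these differences of IAA6 and IAA4 were the 2 whose intervals lay below 0.

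Promoters are shown for IAA6, IAA4 and IAA29, which fell, and for IAA19, which was not called although it is the closest relative of IAA6. Each line holds the 250 bases before the annotated gene start in TAIR10.1. Capitals mark the auxin response element as TGTCTC or TGTCGG, the G-box CACGTG and the PBE-box CACATG, searched on both strands. The first is bound by ARFs, and the boxes by phytochrome interacting factors and other factors of their class.
IAA6, chr1:19673653-19673902, minus strand: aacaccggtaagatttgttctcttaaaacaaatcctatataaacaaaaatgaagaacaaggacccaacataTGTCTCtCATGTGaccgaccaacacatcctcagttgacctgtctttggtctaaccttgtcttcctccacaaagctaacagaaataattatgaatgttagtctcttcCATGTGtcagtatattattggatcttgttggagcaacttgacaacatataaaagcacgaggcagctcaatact
IAA19, chr3:5263751-5264000, plus strand: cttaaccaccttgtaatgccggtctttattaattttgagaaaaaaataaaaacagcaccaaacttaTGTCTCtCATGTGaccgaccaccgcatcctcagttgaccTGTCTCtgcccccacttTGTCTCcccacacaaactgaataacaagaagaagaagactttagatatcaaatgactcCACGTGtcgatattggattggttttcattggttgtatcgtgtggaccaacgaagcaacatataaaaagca
IAA4, chr5:17549929-17550178, plus strand: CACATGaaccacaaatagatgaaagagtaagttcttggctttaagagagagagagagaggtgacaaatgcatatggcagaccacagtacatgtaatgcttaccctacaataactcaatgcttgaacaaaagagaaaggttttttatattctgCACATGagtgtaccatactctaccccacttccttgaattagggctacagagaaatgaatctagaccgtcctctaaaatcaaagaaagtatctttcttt
IAA29, chr4:15583082-15583331, plus strand: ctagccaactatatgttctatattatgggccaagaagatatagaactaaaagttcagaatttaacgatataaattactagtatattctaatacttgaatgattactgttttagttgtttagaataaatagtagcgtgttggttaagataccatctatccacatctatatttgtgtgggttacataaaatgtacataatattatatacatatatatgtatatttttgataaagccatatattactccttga
IAA6 and IAA19 share an unbroken stretch of 23 identical bases that holds TGTCTC and, after 1 base, CATGTG, which is CACATG on the other strand. IAA19 holds 2 more TGTCTC and a G-box. IAA29 had none of these letters in this window.

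Across the family 13 of 29 promoters (44.8%) held TGTCTC or TGTCGG, beside 14.7% of 27443 promoters of protein-coding genes of the same length. A G-box or PBE-box stood in 9 of 29 (31.0%), beside 16.6% of all promoters. In IAA3 the 2 PBE-box matches overlap. Among the 5 genes that fell, 1 held an auxin response element (IAA6) and 2 held a PBE-box (IAA6 and IAA4). Among the other 20 tested genes 12 held an auxin response element and 7 a G-box or PBE-box. These are matches of letters near annotated starts, and no binding was measured here.

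For the receptors 0 of 6 genes passed the test in either direction, beside 6.34% of all tested rows, a share at which 0 calls among 6 genes is no result about them. Their levels and intervals follow. At an unadjusted p under 0.05 in the authors' deposited table the count was also 0. TIR1 (AT3G62980), the founding auxin receptor, had 96.5 FPKM with ethylene and 85.1 FPKM in air (log2 fold change 0.18, interval -0.10 to 0.46). AFB1 (AT4G03190), known for fast responses in roots, had 52.0 FPKM with ethylene and 54.7 FPKM in air (-0.07, interval -0.40 to 0.25). AFB2 (AT3G26810) had 65.5 FPKM with ethylene and 62.2 FPKM in air (0.08, interval -0.22 to 0.37). For its close relative AFB3 (AT1G12820), at 86.4% protein identity, the values were 44.1 FPKM with ethylene and 43.5 FPKM in air (0.02, interval -0.32 to 0.37). AFB4 and AFB5 form the branch known for sensing picloram, a synthetic auxin. AFB5 (AT5G49980) had 45.0 FPKM with ethylene and 39.1 FPKM in air (0.20, interval -0.10 to 0.51). AFB4 (AT4G24390) was the least abundant, with 8.09 FPKM with ethylene and 6.44 FPKM in air, and overlaps a gene on the opposite strand over 644 bases. Its interval was the widest, from -0.24 to 0.89. AFB3 also overlaps genes on the opposite strand, over 638 and 63 bases, and so does AFB1, over 423 and 51 bases. All 6 intervals excluded a 2-fold change. Median log2 fold change over the receptors was 0.13 on the deposited scale and -0.13 relative to the housekeeping genes, so no direction is given.

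The microRNA miR393 targets receptor transcripts, and its site is shown to place the receptors by their regulation. Its mature sequence was read from its annotated locus in TAIR10.1, with the seed (bases 2 to 8) in capitals, and both annotated loci gave the same letters.
miR393: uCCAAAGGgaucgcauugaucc
Below stands the best match in each receptor that has 4 or fewer unpaired bases, with capitals for bases that do not pair with miR393 by Watson-Crick rules. All 4 lie in coding sequence.
TIR1: gAGAcaatgcgatccctttgga
AFB1: gAGAcCatgcgatccctttgga
AFB2: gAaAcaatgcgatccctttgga
AFB3: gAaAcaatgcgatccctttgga
AFB2 and AFB3 had 2 unpaired bases, TIR1 had 3 and AFB1 had 4. The best windows of AFB4 and AFB5 had 7 and 8 and are not shown. Genes with and without a close match had intervals that overlapped. Both MIR393 loci were listed at 0 in both groups and had no test. Here too an exact 0 can be a failed estimate, so it does not show that miR393 was absent.

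Other parts of the auxin pathway were read against the same background, 2.17% of all tested rows called higher and 4.18% lower. Of 9 tested genes of the SCF ligase and its RUB regulators 0 were called. Their median log2 fold change was -0.10, with 4 values above 0 and 5 below. SGT1B had 54.1 FPKM with ethylene and 68.6 FPKM in air (-0.34, interval -0.66 to -0.02). The subunit gene ASK1 had 456.7 FPKM with ethylene and 395.0 FPKM in air, and RCE1, a RUB-conjugating enzyme, had 147.2 FPKM with ethylene and 131.8 FPKM in air. Of 5 TOPLESS co-repressor genes 0 were called. TPL had 92.0 FPKM with ethylene and 73.1 FPKM in air (log2 fold change 0.33, interval 0.02 to 0.65), and TPR1 had 35.3 FPKM with ethylene and 29.4 FPKM in air. The interval of TPL also held 0.26, the median of the housekeeping genes. At the shares above, 0 calls among 9 SCF and RUB genes or among 5 TOPLESS genes is no result about them. Among 5 activating ARF genes, the partners that Aux/IAA proteins repress, 2 rose and 0 fell. ARF6 had 62.8 FPKM with ethylene and 45.2 FPKM in air (log2 fold change 0.47), and its p of 0.0008 in the authors' deposited table became 0.0188 after adjustment. ARF8 had 26.8 FPKM with ethylene and 18.3 FPKM in air (0.55), and its p of 0.00125 in the authors' deposited table became 0.0259 after adjustment. Relative to the housekeeping genes both calls were lost (0.21 for ARF6 and 0.29 for ARF8), and with the GC trend subtracted ARF6, at 0.38, no longer passed. ARF5, ARF7 and ARF19 had values of -0.46, -0.52 and -0.25 and were not called.

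The listed genes of the GH3 and LBD families, which include auxin-induced genes, were not called, beside 2.17% of all tested rows higher and 4.18% lower. At these shares 0 calls among so few genes is no result about them. Of 8 listed GH3 genes, which encode auxin-conjugating enzymes and relatives, 5 were tested and 0 called, with 2 values above 0 and 3 below. GH3.5 had 64.7 FPKM with ethylene and 58.8 FPKM in air, and GH3.6 had 19.6 FPKM with ethylene and 16.6 FPKM in air. Their intervals, from -0.16 to 0.43 and from -0.14 to 0.63, excluded a 2-fold change. Of 3 LBD genes of lateral root formation 2 were tested and 0 called, and LBD16 and LBD18 stayed below 1.5 FPKM in both groups.

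**Figure D4:**
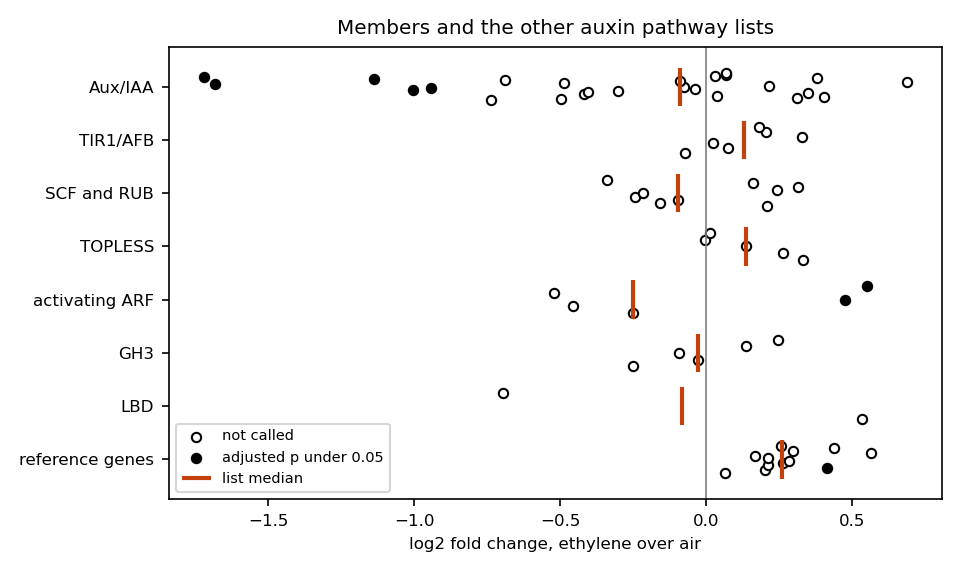
Log2 fold change, ethylene over air, of tested genes in the Aux/IAA and TIR1/AFB families and in other auxin pathway lists, with filled points for adjusted p under 0.05 and an orange bar at each list's median. The called Aux/IAA genes lie at -0.94 and below, the called ARF genes at 0.47 and 0.55, and the 12 housekeeping genes all lie above 0 with a median of 0.26.

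Markers of organs in the seedling were compared because the family is expressed unevenly among them. Of 8 root markers 5 were tested and 0 called, beside 2.17% of all tested rows called higher and 4.18% lower. At these shares 0 calls among 5 genes is no result about them. Values above 0 were held by 4 of the 5. Their median log2 fold change was 0.17, beside 0.26 for the 12 housekeeping genes. PYK10 had 3867.6 FPKM with ethylene and 4093.2 FPKM in air (-0.08), and CASP1 had 176.3 FPKM with ethylene and 170.2 FPKM in air (0.05). SHR had a log2 fold change of 0.43 (interval 0.04 to 0.82), and SCR and WER had 0.17 and 0.49. The list summed to 4098.9 FPKM with ethylene and 4308.1 FPKM in air, and PYK10 makes up most of that sum. PLT2 was at 0 in both groups and PLT1 and COBL9 were below 0.2 FPKM. Of 3 plastid markers PORA and PORB fell, by 0.71 and 0.51 on the log2 scale. RBCS1A was not called, with 13204.8 FPKM with ethylene and 12576.1 FPKM in air (0.07, interval -0.23 to 0.37). The list summed to 15841.2 FPKM with ethylene and 16576.2 FPKM in air, and RBCS1A makes up most of that sum. Of 3 shoot epidermis markers PDF1 rose, with a log2 fold change of 0.51 that was 0.25 and no longer called relative to the housekeeping genes. ATML1 (0.12, interval -0.17 to 0.41) and CER6 (0.34, interval 0.06 to 0.61) were not called. The list summed to 1201.8 FPKM with ethylene and 900.5 FPKM in air, and PDF1 and CER6 make up most of that sum. The part of these shifts in the Aux/IAA values was not tested.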

How the data were processed

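Seedling RNA was taken up in Trizol and sequenced from NEB kit libraries, per the labels' protocols. The submitters' processing notes name TopHat2 2.0.9, Cuffdiff 2.0.1 and the TAIR10 genome. The sources used here give neither the settings nor the scaling of libraries. The deposited table holds 1 value per group, taken as FPKM because those notes name Cuffdiff, and an unadjusted p-value per gene, per the file headers. The depth of each library is unknown.

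From these values the log2 ratio of ethylene over air was computed without a pseudocount. The deposited p-values were adjusted by Benjamini-Hochberg over the 18696 named rows whose p was below 1, with a threshold of 0.05. 243 rows without a gene name were left out. A standard error was implied from each p under a normal approximation, and at the smallest p, 5e-05, it is an upper limit. The calculation was tested on simulated data. Alternatives were other thresholds, filters, pseudocounts, scalings, a GC trend (running median over 501 rows) and counting of merged rows.

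All 35 members matched the TAIR10.1 reference by locus. Promoters and coding sequences were read from it by its own RefSeq annotation, and the table's own coordinates play no part. Where a gene has several coding sequences the longest was used. Members and lists were chosen with earlier results of these data known. Every called member, every receptor and every tested Aux/IAA gene with at least 5 FPKM in 1 group was named with its values, and of each other list the called genes or, with none, the 2 most abundant. Some others were named after their values were seen. Tools were Biopython 1.88, matplotlib 3.10.9, scipy 1.17.1, pandas 2.3.3, numpy 2.4.6 and Python 3.11.15.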

Additional observations from a re-analysis of the deposited data

How the results depend on the processing

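Of the 5 repressor genes that fell, IAA6, IAA4, IAA2 and IAA26 were called lower under every alternative with a test, and IAA29 under all but a threshold of 0.01, which left 4. All-gene counts moved with the threshold, to 190 higher and 409 lower at 0.01 and to 631 higher at 0.10. With at least 5 FPKM required, IAA5, IAA30 and IAA34 dropped out, with log2 fold changes of 0.38, 0.69 and -0.69. The Aux/IAA median over the 22 genes left was -0.20, and IAA16 was also called lower (6 in all). At 0.10, IAA3 and IAA16 were also lower (7 in all). Scaled to the housekeeping genes, 110 rows were higher and 2793 lower, and 10 Aux/IAA genes were lower. On that scale the Aux/IAA median was -0.35, below 0 as before, and the receptor median changed sign, from 0.13 to -0.13. There IAA7, IAA8, IAA9, IAA14 and IAA28 also changed sign, to -0.23, -0.19, -0.19, -0.22 and -0.045, as did TIR1, AFB2, AFB3 and AFB5, to -0.078, -0.18, -0.24 and -0.055, which follows from the shift subtracted. On the housekeeping scale IAA17 stood at 0.09 and was not called. With the GC trend subtracted 1 Aux/IAA gene, IAA17, was called higher (log2 fold change 0.43). IAA20, IAA27, TIR1 and AFB3 changed sign, to 0.11, 0.019, -0.0065 and -0.058, and none of these 4 was called. The difference of IAA7 minus IAA14 also changed sign, to 0.015. The cause was not tested. The differences within the 3 pairs of nearby genes kept their direction and their side of 0.

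No paired analysis was possible because the table holds 1 value per group, and for the same reason the planned runs without each replicate were not made. No depth, floor or counting interval is given. IAA34 and IAA30, at 2.20 FPKM or less, had the widest implied intervals among the members.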

Other observations

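IAA20 and IAA30, the pair of Aux/IAA proteins with the highest identity (84.9%), both lack codons for the degron core, yet their transcripts stood far apart in level. IAA20 had 149.9 FPKM with ethylene and 154.0 FPKM in air, while IAA30 had 1.25 FPKM with ethylene and 0.779 FPKM in air. Their promoter windows share an unbroken stretch of 18 bases that holds TGTCTC, and each window also holds a G-box. The pair was noticed after the values were seen.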
